A study of Mus musculus with 36 samples.

Results

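Mitochondrial ribosomal protein genes were taken as every gene of the RNA-seq tables whose symbol is Mrpl or Mrps followed by a number and, in some, a letter. The rule found 78 of the 19426 genes listed in either table, 49 of the large subunit by name (Mrpl) and 29 of the small subunit (Mrps). All 78 were present in the tables of both cell types and all 78 passed the filter on low values in every comparison. Of these genes, 46 have a counterpart in the bacterial ribosome, 31 do not, and Mrps36 was put in neither class because its product is now known as a component of the 2-oxoglutarate dehydrogenase complex. Mrps30 and Mrps18a carry small-subunit names, although their products sit in the large subunit.

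The mitochondrial ribosome translates the few proteins encoded by mitochondrial DNA, all of them membrane subunits of the respiratory chain and the ATP synthase. Its RNA comes from the mitochondrial genome, while every one of its proteins is encoded in the nucleus, made in the cytosol and imported. Assembly therefore needs nuclear genes scattered over many chromosomes to be expressed together. The balance between glycolysis and respiration changes as pluripotent cells differentiate.

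The study compared mouse embryonic stem cells (ESCs) and neural stem cells (NSCs) grown from them, either wildtype (WT) or with Tet1, Tet2 and Tet3 all knocked out (TKO). TET enzymes oxidise 5-methylcytosine and so start its removal. The ESCs were male cells of the strain V6.5 (mixed 129/C57BL/6), kept in serum with LIF on gelatin for 24 hours after preplating for 45 minutes to remove feeder cells. NSCs were taken on day 6, at passage 1. RNA-seq covered 3 WT and 2 TKO lines, which the submitters call independent, each as ESC and as NSC (10 libraries of the series' 36 samples), and promoter capture Hi-C covered 1 WT and 1 TKO NSC library. The line codes are the same for ESCs and NSCs, so that anything particular to the 2 TKO lines cannot be told apart from the loss of the TET genes. How the WT lines were derived is not stated, and the p-values measure only the spread between these samples.

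The libraries held between 41007791 and 49060991 counted reads. Messages of the targeted genes were reduced and not absent: in ESCs the TKO change was -1.17 for Tet1, -0.56 for Tet2 and -1.23 for Tet3 on the log2 scale, and in NSCs it was -0.47 for Tet1 and -0.73 for Tet3, while Tet2 (0.14, adjusted p = 0.459) did not pass. The 10 pluripotency markers summed to 213268 to 234431 normalised counts in WT ESCs and to 15729 to 17927 in WT NSCs, and the 10 neural stem cell markers to 18489 to 19392 and to 372340 to 386279. TKO NSCs differed in both directions: their neural marker sum was 194852 to 202420, and that of 8 fibroblast markers was 123088 to 144236 against 48224 to 60973 in WT NSCs. No marker of these lists was at 0 in all libraries. In such bulk samples, fewer cells of a type and less RNA per cell cannot be told apart.

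Because the members moved together in several comparisons, their promoters were examined for shared sequence. RefSeq promoter windows (GRCm38.p6, 250 bases before to 50 bases after a start) matched 69 of the 78 genes, with 75 windows. The 6 windows below belong to members described in the results and hold CCGGAA, the core bound by ETS factors such as GABP (nuclear respiratory factor 2), within the 100 bases before the start. Each is printed along the gene's strand, with the motif in capitals, which reads TTCCGG where it lies on the opposite strand.

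Mrps27, chr13:99344686-99344785, plus strand: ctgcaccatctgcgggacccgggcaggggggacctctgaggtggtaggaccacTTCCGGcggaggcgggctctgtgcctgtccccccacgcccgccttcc
Mrps31, chr8:22411240-22411339, plus strand: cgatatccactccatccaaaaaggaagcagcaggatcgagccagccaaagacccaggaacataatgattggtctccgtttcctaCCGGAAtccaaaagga
Mrpl18, chr17:12916092-12916191, minus strand: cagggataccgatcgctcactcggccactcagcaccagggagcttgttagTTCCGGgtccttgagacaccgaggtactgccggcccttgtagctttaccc
Mrpl34, chr8:71464826-71464925, plus strand: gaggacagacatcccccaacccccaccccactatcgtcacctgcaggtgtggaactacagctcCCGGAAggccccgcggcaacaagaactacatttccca
Mrpl33, chr5:31613851-31613950, plus strand: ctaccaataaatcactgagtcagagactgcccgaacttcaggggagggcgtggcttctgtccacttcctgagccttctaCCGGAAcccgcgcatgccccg
Mrpl27, chr11:94653691-94653790, plus strand: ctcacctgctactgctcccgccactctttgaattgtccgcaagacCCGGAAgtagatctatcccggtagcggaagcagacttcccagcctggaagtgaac

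A further 4 windows are shown because these genes stood out by the size of their change, and the 100 bases before their start hold none of the motifs searched.

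Mrps6, chr16:92058236-92058335, plus strand: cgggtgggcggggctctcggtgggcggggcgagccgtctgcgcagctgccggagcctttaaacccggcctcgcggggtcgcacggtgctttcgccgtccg
Mrpl41, chr2:24975099-24975198, minus strand: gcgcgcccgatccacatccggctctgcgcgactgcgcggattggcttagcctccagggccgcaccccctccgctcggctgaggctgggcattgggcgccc
Mrpl12, chr11:120484537-120484636, plus strand: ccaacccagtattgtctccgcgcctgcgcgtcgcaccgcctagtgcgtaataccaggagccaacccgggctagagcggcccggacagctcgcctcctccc
Mrps24, chr11:5707702-5707801, minus strand: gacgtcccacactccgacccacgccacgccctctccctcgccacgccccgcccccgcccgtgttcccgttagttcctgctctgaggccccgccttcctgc

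CCGGAA was found on either strand in 57.3% of the 75 member windows, against 14.9% of all 32851 windows in the table and 23.3% of the 16791 windows of genes in the expression tables. AAGATGGC, the core bound by YY1, was in 16% of member windows, against 3.67% for the expressed genes. The palindrome bound by NRF1 was in 4% against 1.70%, and CACGTG, the E-box bound by Myc and its relatives, in 9.33% against 9.24%. Both strands were searched for every motif, and no motif contains another. Median CpG observed over expected was 0.82 in member windows and 0.70 in those of expressed genes. CCGGAA was in 58.5% of the 53 windows of members lower in WT NSCs than in WT ESCs, and in 57.1% of the 7 windows of those higher. For the YY1 core these shares were 18.9% and 0%, for the NRF1 palindrome 5.66% and 0%, and for the E-box 13.2% and 0%. Shares count windows and not genes. The windows of Mrpl2 overlap, so its CCGGAA and CACGTG sites were counted more than once. A group of 7 windows is too small to compare such shares, and the differences were not tested. These are letter matches and not measured binding.

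The first question was how the genes changed from ESC to NSC in normal cells. Most fell. Of the 78 members, 58 were lower and 7 higher in WT NSCs than in WT ESCs, while of all 15381 genes tested 37.5% were lower and 37.8% higher. The median log2 fold change was -0.61 over the members, with quartiles of -0.995 and -0.20, and -0.0017 over all genes. For this comparison the whole reads behind the deposited values were put on a common scale over both cell types, with size factors from the median of ratios. With every library scaled to an equal total, the median of all genes moved to 0.33 and that of the members to -0.28, with 42 members lower and 13 higher. The values of 13 members changed sign, and 4 of these had passed as lower (Mrpl43, Mrps15, Mrps18a and Mrps18c). None of the 4 passed after the change.

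The steepest fall was that of Mrpl15, a protein of the core of the large subunit with a bacterial counterpart. Its jointly scaled counts were 7852, 8612 and 8601 in WT ESCs and 1843, 1994 and 1747 in WT NSCs, a log2 change of -2.17 ± 0.07 (SE, adjusted p = 1.65e-12). The groups lay far apart. Mrps18b, a small-subunit protein, had 3160, 2652 and 2724 in ESCs and 690, 604 and 648 in NSCs, a change of -2.13 ± 0.10 (adjusted p = 4.82e-11). Mrps27, a pentatricopeptide repeat protein of the small subunit, fell by 1.58, from 4428, 4278 and 4310 to 1528, 1445 and 1392.

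Further falls came in both classes of protein. Mrps5 (-1.57), Mrpl1 of the L1 stalk (-1.47), Mrpl35 (-1.38) and Mrpl18 (-1.28) have bacterial counterparts. Mrpl45 (-1.55), which sits at the tunnel exit facing the inner membrane, Mrps31 (-1.48), Mrpl42 (-1.41), Mrps30 (-1.40) and Mrpl40 (-1.28) are mitochondrial additions without one. By class, 36 of 46 genes with a bacterial counterpart and 22 of 31 without one fell, with medians of -0.71 and -0.51. By name, 38 of 49 Mrpl and 20 of 29 Mrps genes fell. The differences between these classes were not tested. Under all 22 alternatives run, 42 of the 58 kept their call and direction where they were tested. Those that left out a TKO library cannot change the WT fold changes, only the estimate of their error.

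The 7 members that rose in WT NSCs were Mrps6, Mrpl41, Mrpl14, Mrpl58, Mrpl27, Mrps21 and Mrpl33, and all 7 kept their call under the alternatives in which they were tested. Mrps6, a small-subunit protein with a bacterial counterpart, stood apart with 895, 743 and 724 in ESCs and 3849, 3967 and 3322 in NSCs, a change of 2.24 ± 0.10 (adjusted p = 5.70e-11). Mrps6 (chr16:92058336-92112227) and Slc5a3, the sodium-dependent myo-inositol transporter, overlap, their annotated starts lie 14 bases apart, and Slc5a3 rose by 3.93. How reads of the shared part were assigned is not stated, so that these genes may not be told apart. Next came Mrpl41 (0.74 ± 0.14), Mrpl14 at the subunit interface (0.66 ± 0.18), Mrpl58 (0.58 ± 0.07) and Mrpl27 (0.50 ± 0.13), a protein close to the peptidyl transferase centre, with Mrps21 (0.46) and Mrpl33 (0.43) behind them. Mrps26 was the member nearest to no difference (0.00022 ± 0.093, adjusted p = 0.998), with 1940, 2323 and 2570 in ESCs and 2315, 2319 and 2159 in NSCs.

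**Figure D1:**
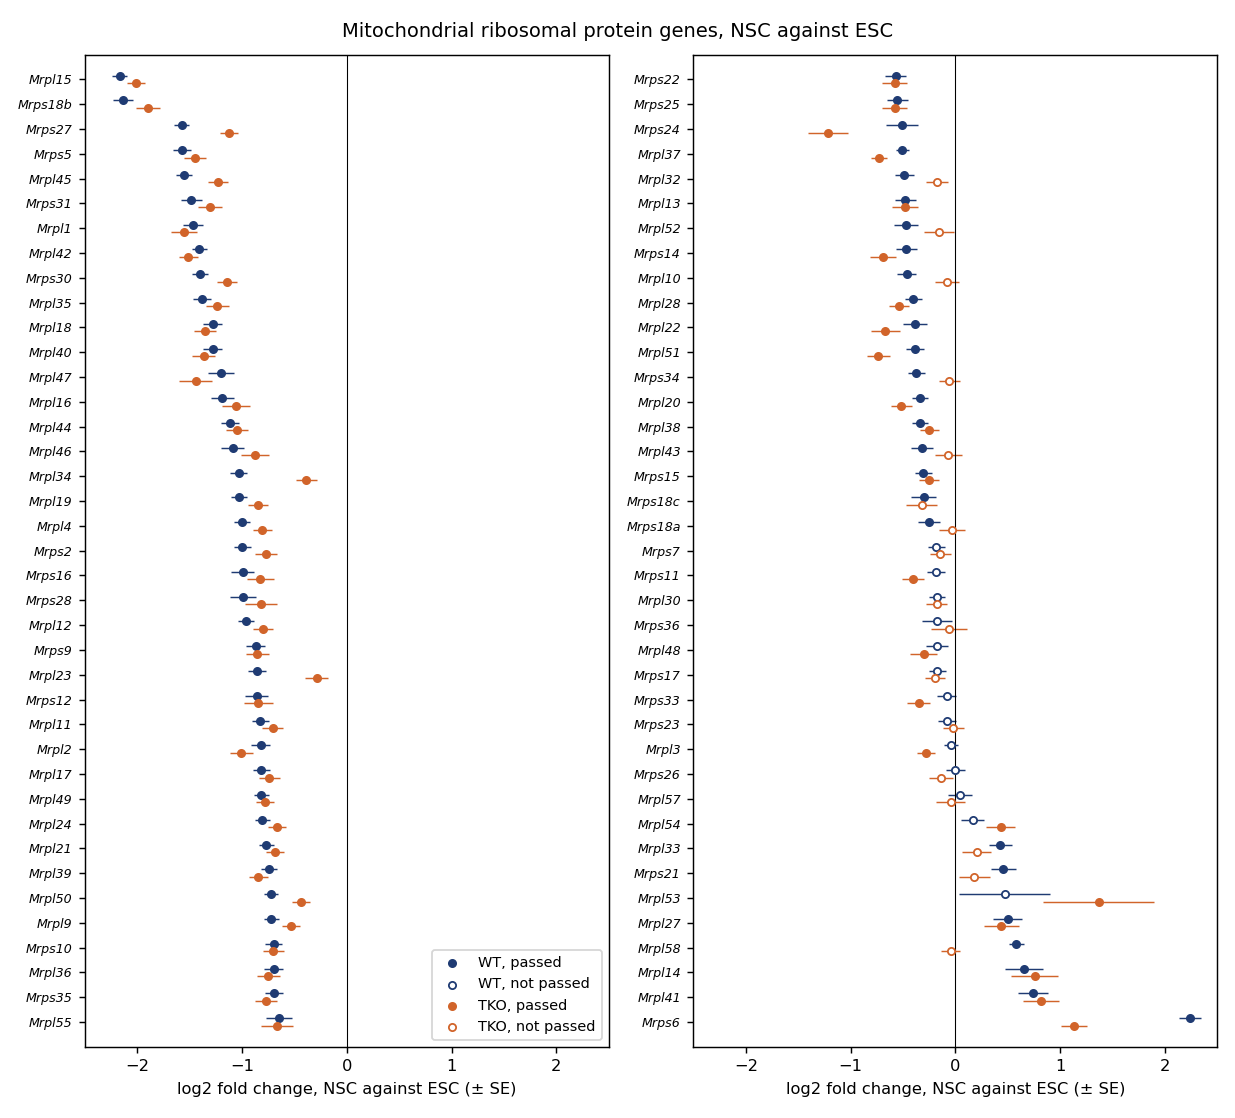
Log2 fold change of NSC against ESC for each of the 78 genes, ordered by the WT value, with SE as bars (blue, 3 WT lines per cell type; orange, 2 TKO lines per cell type; filled points passed an adjusted p of 0.05). Most points lie left of 0 in both genotypes, Mrpl15 at the top left has -2.17 in WT, and Mrps6 at the bottom right has 2.24 in WT and 1.13 in TKO.

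The same question in TKO cells gave a like picture. Of the 78 members, 55 were lower and 6 higher in TKO NSCs than in TKO ESCs, while 34.8% of all genes were lower and 35.4% higher (70.2% in either direction). The median was -0.67 over members and -0.0046 over all genes. With equal totals these became -0.27 and 0.39, with 38 members lower and 16 higher. Here 22 members changed sign, and 7 of them had passed as lower (Mrpl3, Mrpl23, Mrpl34, Mrpl38, Mrpl48, Mrps15 and Mrps33). None of the 7 passed after the change. Mrpl15 (-2.01 ± 0.09), Mrps18b (-1.90 ± 0.12), Mrpl1 (-1.55 ± 0.12), Mrpl42 (-1.51 ± 0.09) and Mrpl47 (-1.44 ± 0.15) were among the largest falls. The members lower in both genotypes numbered 51, which is 51 of the 58 in WT and of the 55 in TKO, and Mrpl14, Mrpl27, Mrpl41 and Mrps6 were higher in both. Genes shared between the genotypes were not counted over all genes, so these overlaps are given as a description.

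The other rises in TKO cells were those of Mrpl53 and Mrpl54. Mrpl53 had the fewest normalised counts of the members in both tables (13.5 to 84.5 over the libraries), and its rise of 1.37 ± 0.53 (adjusted p = 0.0322) was lost without TKO ESC replicate 2 and without either TKO NSC replicate. Leaving out TKO NSC replicate 2 left 3 of the 6 rises. Same-numbered ESC and NSC libraries of a genotype carry the same line code, and a fit with the line as a block changed 3 calls: Mrps18a in WT (adjusted p = 0.0515) and Mrpl23 (0.0520) and Mrpl48 (0.0689) in TKO no longer passed.

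On the common scale, other parts of the mitochondrial gene expression machinery also fell from WT ESCs to WT NSCs. Of 5 mitochondrial ribosomal proteins with other names, 4 fell: Gadd45gip1 (-1.65), Ptcd3 (-1.498), the GTP-binding small-subunit protein Dap3 (-0.82) and Aurkaip1 (-0.62). Of 26 assembly factors 21 fell and 0 rose (median -0.58), among them the pseudouridine synthase Rpusd4 (-1.54), Fastkd2 (-1.53) and Rpusd3 (-1.37). Among 15 translation factors 10 fell, with Lrpprc, which stabilises mitochondrial messages, at -1.67 and the elongation factor Gfm1 at -1.39, and among 19 aminoacyl-tRNA synthetases 14 fell. In the list of 13 transcription and processing genes 10 fell, with Prorp, the nuclease of mitochondrial RNase P, at -2.31.

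Of 12 nuclear regulators of mitochondrial genes 10 fell in WT NSCs, led by Mycn (-3.58), the coactivator Pprc1 (-2.36) and Gabpa (-1.32), the DNA-binding subunit of GABP. Cytosolic ribosomal proteins fell in 78 of 79 (median -0.94). Subunits of respiratory complex I did not share this direction: 14 of 36 rose and 7 fell, with a median of 0.16. Of 13 transcripts encoded by mitochondrial DNA, 4 fell, among them mt-Co1 (-0.44), and mt-Cytb rose (0.30). Of 40 subunits of the ATP synthase and of complexes III and IV, 7 rose and 17 fell (median -0.11), while 37.8% and 37.5% of all genes did. On the common scale the median was thus below 0 for the ribosome and for these subunits, and above 0 for complex I. From TKO ESCs to TKO NSCs the medians were -0.0039 for complex I and -0.37 for the ATP synthase and complexes III and IV. These lists were not examined with equal totals. That scaling moved the median of all genes to 0.33 in WT and to 0.39 in TKO. The direction of list medians may therefore depend on the scaling. The differences between these lists were not tested.

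The second question was how these genes differed between TKO and WT ESCs. In TKO ESCs, 15 members were higher and 1 lower, while 7.29% of all 17033 genes tested were higher and 7.02% lower. The rises followed chromosomes. All 11 members on chromosome 11 rose, as did both members on distal chromosome 6 (from 100 Mb on), Mrpl51 and Mrps35. Of all genes tested, 440 of 1282 on chromosome 11 and 131 of 305 on distal chromosome 6 were higher. The single fall was that of Mrpl34 on chromosome 8, and of the 63 members elsewhere 2 rose. Of all genes, 359 of 844 on chromosome 8 were lower, and 656 of 13490 elsewhere were higher.

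Genes of these chromosomes moved as a whole. The median log2 change over all 1282 tested genes of chromosome 11 was 0.39 in TKO ESCs, beside 0.55 for the 11 members. For distal chromosome 6 it was 0.52 beside 0.65, and for chromosome 8 it was -0.41 beside -0.23 for its 2 members. Elsewhere the median was -0.0079 over all genes and 0.11 over the 63 members, of which 50 were above 0. When each library was centred on its chromosome medians, 3 members were higher and 0 lower: Mrps24 (0.99), Mrps31 (0.41) and Mrps15 (0.38). Of all 17033 genes, 743 were higher and 851 lower with this centring. The shift was not the same in both TKO ESC libraries: all genes of chromosome 11 had a median of 0.26 above the WT mean in replicate 1 and 0.53 in replicate 2.

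**Figure D2:**
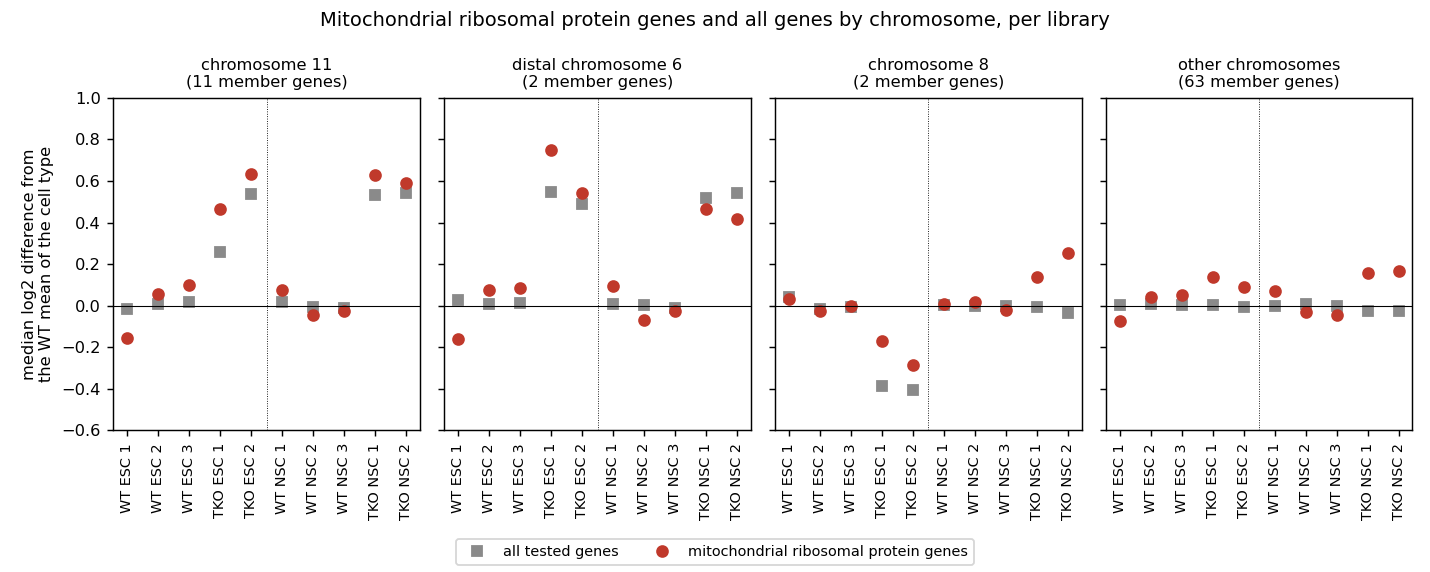
Median log2 difference from the WT mean of the same cell type in each library, for mitochondrial ribosomal protein genes (red circles) and all tested genes (grey squares) of chromosome 11, distal chromosome 6, chromosome 8 and the other chromosomes. Both TKO lines lie above 0 on chromosome 11 and distal chromosome 6 in both cell types, and all genes of chromosome 8 lie at -0.39 and -0.41 in the TKO ESCs, against -0.0065 and -0.037 in the TKO NSCs.

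Mrps24, a small-subunit protein with a bacterial counterpart, encoded on chromosome 11 (chr11:5703982-5707701), changed most. Its normalised counts were 1341, 2063 and 2064 in WT ESCs and 4275 and 5084 in TKO ESCs, a log2 change of 1.38 ± 0.16 (adjusted p = 2.87e-05). Both TKO lines were far above every WT line. It was the only one of the 15 rises that passed under every alternative in which it was tested, 17 of them, centring included. Mrpl12, the stalk protein that recruits translation factors to the ribosome, had 5342, 6505 and 6460 in WT and 9036 and 9786 in TKO ESCs (0.63 ± 0.10, adjusted p = 0.000399), and centred on its chromosome its change was 0.24 (adjusted p = 0.132).

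The other rises on chromosome 11 were Mrpl22 (0.79), which lines the exit tunnel, Mrpl55 (0.66), Mrpl58 (0.64), Mrps7 of the small-subunit head (0.55), Mrpl27 (0.51), Mrpl38 of the central protuberance (0.48), Mrps23 (0.42), Mrpl10 at the base of the stalk (0.38) and Mrpl45 (0.36). On distal chromosome 6 Mrpl51 rose by 0.70 and Mrps35 by 0.60. On the remaining chromosomes Mrps15 (0.40 ± 0.11, adjusted p = 0.0170) and Mrps26 (0.40 ± 0.12, adjusted p = 0.0371) rose. The call of Mrps15 was lost without either TKO line or WT replicate 3, and that of Mrps26 without either TKO line or WT replicate 1 or 2. Without TKO ESC replicate 2, 6 members were higher and 0 lower: Mrpl12, Mrpl22, Mrpl51, Mrpl58, Mrps24 and Mrps35.

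Mrpl34 is a small protein of the large subunit with a bacterial counterpart (chr8:71464926-71465753). It had 3409, 3710 and 3741 normalised counts in WT and 2902 and 2384 in TKO ESCs, a fall of 0.46 ± 0.11 on the log2 scale (adjusted p = 0.00732). Both TKO lines were below all WT lines. Centred on chromosome 8 its difference was -0.056. Mrps31 on the same chromosome, with 2492, 2120 and 2169 in WT and 2222 and 2302 in TKO ESCs, gave 0.0043 (adjusted p = 0.986), with overlapping groups. The member nearest to 0 was Mrps28, with 0.00051 ± 0.13 (adjusted p = 0.998).

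Other lists around the ribosome were examined in TKO ESCs as well. Of 26 assembly factors 2 rose, the GTPase Eral1 (0.46) and the methyltransferase Mrm1 (0.64), both on chromosome 11. Of 15 translation factors 3 rose: the initiation factor Mtif3 (0.66), the elongation factor Tufm (0.39) and its exchange factor Tsfm (0.37), none of them on chromosomes 8 or 11 or distal chromosome 6. Dap3 rose (0.30) and Gadd45gip1, on chromosome 8, fell (-0.40). Among the regulators Ppargc1b, a coactivator of mitochondrial genes, rose by 1.76. Of 82 cytosolic ribosomal proteins 10 rose and 3 fell, with 7 of the rises on chromosome 11. Of 42 subunits of the ATP synthase and of complexes III and IV, 8 rose and 1 fell, with 4 of the rises on chromosome 11. Of 37 complex I subunits 1 rose. The medians of these 2 lists were 0.22 and 0.17, with 90.5% and 89.2% of values above 0. Over the members the median was 0.14, with 82.1% above 0, so a shift of this size was not particular to them.

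The third question was the TKO effect in NSCs. There 29 members were higher and 1 lower, while 18.2% of all 17744 genes tested were higher and 19.5% lower. The median was 0.19 over members, of which 68 were above 0, and 0.0059 over all genes. Of the 15 members higher in TKO ESCs, 14 were among the 29 higher in TKO NSCs, Mrpl58 being the exception. All of the 14 except Mrps15 and Mrps26 lie on chromosome 11 or distal chromosome 6. The same overlap was not counted over all genes, so this one is given as a description. On chromosome 11, 10 of 11 members rose (median 0.60, beside 0.53 for all 1301 genes of the chromosome), and Mrpl51 and Mrps35 rose again. Of all genes, 774 of 1301 on chromosome 11 and 174 of 320 on distal chromosome 6 were higher. Of the 63 members on the remaining chromosomes 17 rose and 1 fell, with a median of 0.17 beside -0.030 for all genes there. Of all 13914 genes there, 2125 were higher and 3037 lower. With chromosomes centred, 22 members were higher and 2 lower, and without chromosomes 8 and 11 and distal chromosome 6 there were 17 and 1. Over all genes these were 2713 and 3395 of 17744, and 2088 and 3016 of 13914.

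**Figure D3:**
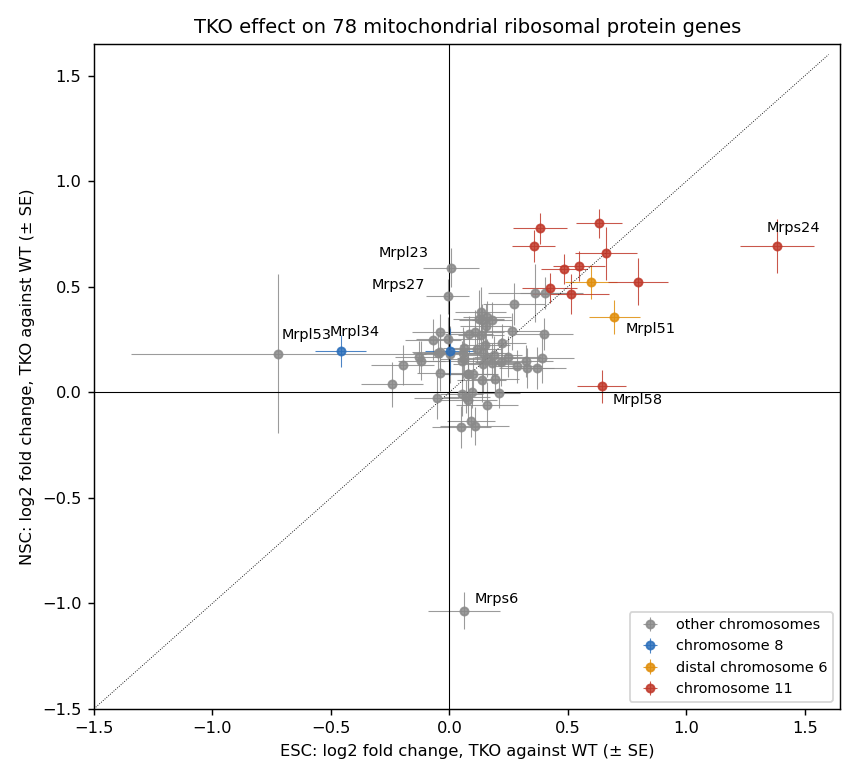
Log2 fold change of TKO against WT in ESCs (horizontal) and NSCs (vertical) for the 78 genes, each with SE, coloured by chromosome (3 WT and 2 TKO lines per cell type; the dotted line marks equal values). Members on chromosome 11 lie to the upper right, Mrps24 furthest at 1.38 in ESCs, Mrpl58 lies near 0 in NSCs only, and Mrps6 lies alone at -1.03 in NSCs.

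On chromosome 11 Mrpl12 rose most in NSCs, from 4529, 4131 and 4154 in WT to 7401 and 7460 in TKO (0.80 ± 0.07, adjusted p = 4.62e-06). Mrpl10, which holds Mrpl12 on the ribosome, had 3083, 3055 and 2794 in WT and 5202 and 4994 in TKO (0.78 ± 0.07). These neighbours in the stalk kept their calls with chromosomes centred, at 0.26 (adjusted p = 0.0107) and 0.24 (adjusted p = 0.0287). Mrpl45 (0.69), Mrps24 (0.69), Mrpl55 (0.66), Mrps7 (0.60), Mrpl38 (0.58), Mrpl22 (0.52), Mrps23 (0.50) and Mrpl27 (0.46) also rose, and none of these 8 passed with chromosomes centred.

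On other chromosomes Mrpl23 rose most. This protein lies beside the exit of the peptide tunnel and is encoded at chr7:142532467-142540747. It had 1247, 1206 and 1148 normalised counts in WT and 1846 and 1768 in TKO NSCs (0.59 ± 0.09, adjusted p = 0.000411), with no overlap. Its neighbours include the imprinted genes H19, 34783 bases away, and Igf2, 110021 bases away, which rose by 5.59 and 1.6 in TKO NSCs, while Lsp1, 37599 bases away on the other side, fell by 0.97. Tnnt3, 16254 bases away on the same side as Lsp1, did not pass (0.51, adjusted p = 0.684), at 12.7 to 157 normalised counts in NSCs. Whether Mrpl23 shares in the change of this imprinted region was not tested.

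Mrpl23, Mrps27, Mrps15, Mrpl9 and Mrpl4 kept their calls under all 18 alternatives run. Mrps27 had 1790, 1696 and 1634 in WT and 2381 and 2293 in TKO NSCs (0.45 ± 0.08, adjusted p = 0.00130). Mrps15, a small-subunit protein with a bacterial counterpart, had 2591, 2497 and 2355 against 3414 and 3448 (0.47 ± 0.08, adjusted p = 0.000524). In all of these the 2 TKO lines were above the 3 WT lines. Mrpl9 (0.36) and Mrpl4 (0.34) were similar in size.

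The remaining 12 of these 17 were Mrpl14 (0.47), Mrpl16 (0.42), Mrps18b (0.38), Mrpl15 (0.34), Mrpl35 (0.31), Mrps12 of the decoding centre (0.29), Mrps16 (0.29), Mrps34 (0.28), Mrpl19 (0.28), Mrps26 (0.28), Mrps5 (0.27) and Mrpl17 (0.21). Each of these lost its call under at least 1 alternative, such as leaving out a library. Of all 29 members higher in TKO NSCs, 24 were lower in WT NSCs than in WT ESCs, beside 58 of all 78 members. The 2 contrasts share the WT NSC libraries, so this count is given as a description.

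Mrps6 was the 1 fall. Its normalised counts were 4509, 4656 and 3899 in WT NSCs and 2035 and 2205 in TKO NSCs, a log2 change of -1.03 ± 0.09 (adjusted p = 5.36e-06). In ESCs it had 763, 638 and 624 in WT and 704 and 699 in TKO, with overlapping groups and a change of 0.061 (adjusted p = 0.846). Slc5a3, which overlaps it, fell by 1.32 in TKO NSCs, from 5145, 5800 and 5485 to 2353 and 2031, and was -0.10 in ESCs. The part of the shared stretch in these values was not tested. Mrpl42 lay nearest to 0 in NSCs (0.0015 ± 0.078, adjusted p = 0.991).

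**Figure D4:**
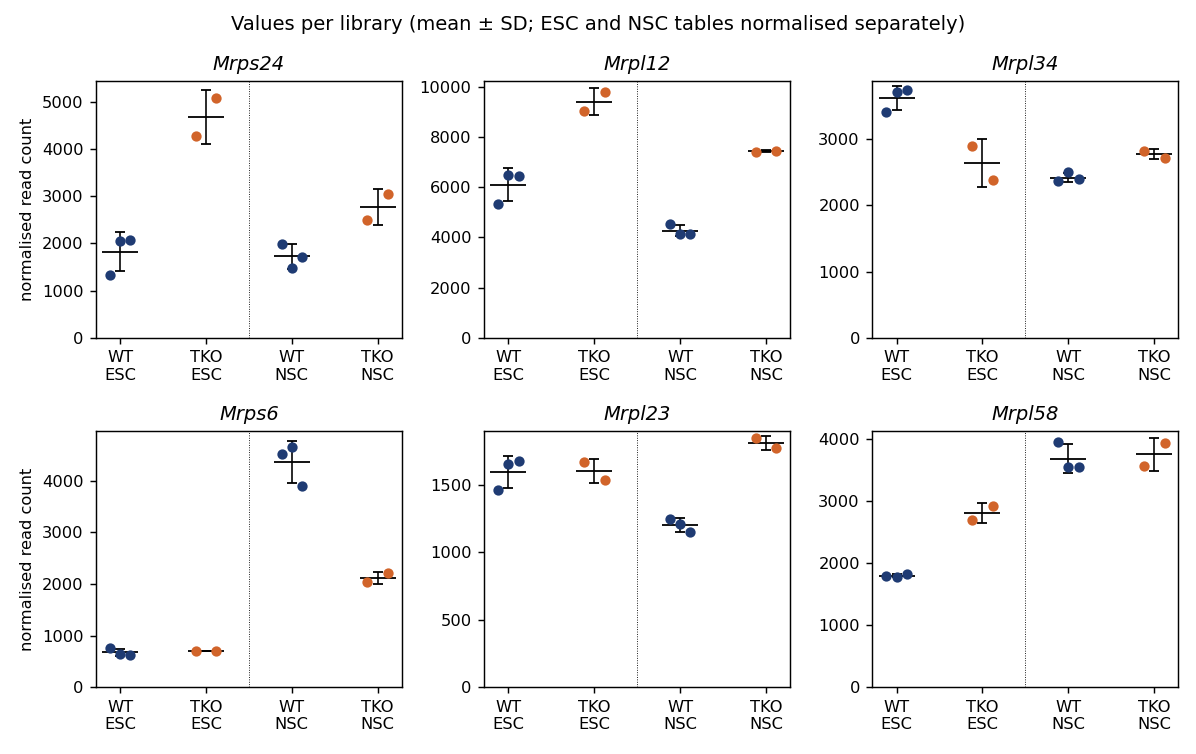
Normalised read counts in every library for 6 genes (points, blue for WT and orange for TKO; dashes and bars, mean ± SD of 3 WT or 2 TKO lines; the dotted line separates the ESC and NSC tables, which were normalised apart). Mrps24 and Mrpl12 are higher in TKO lines of both cell types, Mrpl34 is lower in TKO ESCs, Mrps6 is lower in TKO NSCs, Mrpl23 is higher in TKO NSCs and Mrpl58 is higher in TKO ESCs.

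Around these genes, 10 of 26 assembly factors rose in TKO NSCs and 0 fell (median 0.25): the pseudouridine synthase Rpusd3 (1.20), Eral1 (0.78), Mrm3 (0.76) and the GTPase Mtg1 (0.70) most, with 4 of the 10 on chromosome 11 or distal chromosome 6. In the list of transcription and processing genes Tefm, the elongation factor of the mitochondrial polymerase (1.03), Pnpt1 (0.98), the tRNA processing nuclease Elac2 (0.93) and Prorp (0.55) rose and Grsf1 fell (-0.57). Tefm, Pnpt1 and Elac2 lie on chromosome 11. Mtif2 (0.70) and Taco1 (0.59), both on chromosome 11, and Tufm (0.31) rose among translation factors, and Guf1 fell (-0.28). Myc rose by 1.31, Esrra by 0.62 and Pprc1 by 0.34, while Mycl (-0.62), Gabpb2 (-0.41) and Gabpa (-0.27) fell.

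Of 79 cytosolic ribosomal proteins 26 rose and 0 fell in TKO NSCs (median 0.13), with 16 of the 26 outside chromosomes 8 and 11 and distal chromosome 6. Complex I subunits were divided, 5 of 36 rising and 3 falling (median -0.013). Of 42 subunits of the ATP synthase and of complexes III and IV, 4 rose and 2 fell (median 0.018). Beside these counts stood the change in cell type markers: of 10 neural stem cell markers 7 were lower and Sox9, on chromosome 11, higher, of 8 fibroblast markers 7 were higher and Col1a1, on chromosome 11, lower, and of 10 pluripotency markers 5 higher and 1 lower in TKO NSCs, and their part in the values of the members was not tested.

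The fourth question was where the TKO effect differed between the cell types. In the test of the difference itself, 3 members had a larger TKO effect in NSCs and 2 a smaller one, while 10.9% of all 15369 genes were higher and 9.81% lower. The 5 of 78 make a smaller share than that background, a difference that was not tested. Mrpl34 went from -0.46 in ESCs to 0.20 in NSCs (difference 0.66 ± 0.13, adjusted p = 0.00237). The median over all genes of chromosome 8 went from -0.41 to -0.019, and with chromosomes centred the difference was 0.26 (adjusted p = 0.174).

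Mrpl23 (difference 0.58 ± 0.14, adjusted p = 0.00884) and Mrps27 (0.46 ± 0.11, adjusted p = 0.00701) rose in NSCs and lay at 0.0062 and -0.0073 in ESCs. Mrps6 had a difference of -1.10 ± 0.16 (adjusted p = 0.000301). Mrpl58, also called ICT1, is a peptidyl-tRNA hydrolase that became part of the large subunit and frees stalled ribosomes. It had 1788, 1778 and 1829 in WT and 2697 and 2925 in TKO ESCs, and 3947, 3551 and 3549 in WT and 3565 and 3940 in TKO NSCs. Its groups were apart in ESCs and overlapped in NSCs, a difference of -0.62 ± 0.12 (adjusted p = 0.00198). With chromosomes centred its TKO change in NSCs was -0.51 (adjusted p = 0.000448). None of the 10 other members of chromosome 11 passed as lower there, although Mrpl22 (-0.013), Mrpl27 (-0.074) and Mrps23 (-0.043) lay below 0. Without TKO ESC replicate 2, 5 members had a larger effect in NSCs.

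Promoter capture Hi-C gave the loops of these genes in NSCs, with 1 library per genotype and no test. A loop was assigned where its captured fragment holds either end of a member. Each loop was counted once in a total, although one between 2 captured fragments is listed from both, and Mrpl46 and Mrps11 share a fragment. There were 472 such loops in the WT and 429 in the TKO library, and the TKO share was 47.6% (exact Clopper-Pearson 95% interval 44.3% to 50.9%, counting error only) beside 49.6% of all loops (51990 in WT and 51122 in TKO). Loops were found for 67 members in each library, and 5 members had none in either. The median was 4 per member in WT and 3 in TKO, with 29 members having more loops in TKO, 38 fewer and 11 equal numbers.

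Loop numbers differed by region, for the members and for all loops. The 11 members on chromosome 11 had 59 loops in WT and 100 in TKO, where all loops of the chromosome numbered 5031 and 8200, and Mrpl12 had 15 and 32 of them. The 2 members on distal chromosome 6 had 3 and 21, where all loops of that stretch numbered 1010 and 1830. That rise was Mrpl51 alone (2 and 20), as Mrps35 had 1 in each. The 63 members elsewhere had 358 and 288, beside 42766 and 38399 for all loops there. The 2 members on chromosome 8 had 52 and 20, beside 3183 and 2693 for all loops of the chromosome, with Mrpl34 going from 46 to 17 although its message in NSCs was 0.20 above WT (adjusted p = 0.0614, and 0.0435 with chromosomes centred). The fragments of Mrpl34 also hold the starts of Abhd8 and Dda1, and that of Mrpl51 the start of Ncapd2.

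Mrpl41 had 26 and 15 loops, Mrps27 17 and 9, and Mrpl9 19 and 11, while the messages of Mrps27 and Mrpl9 were higher in TKO NSCs. The fragment of Mrpl41 also holds the start of Pnpla7, and that of Mrps27 the start of Ptcd2. Mrpl23 had 5 in WT and 10 in TKO. Mrps6, whose fragment also holds the start of Slc5a3, had 2 in TKO and none listed in WT, where contacts below the lowest listed score of 5 cannot be seen. Loops with both anchors on the same fragments in the 2 libraries numbered 144, which is 30.5% of the WT and 33.6% of the TKO loops.

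**Figure D5:**
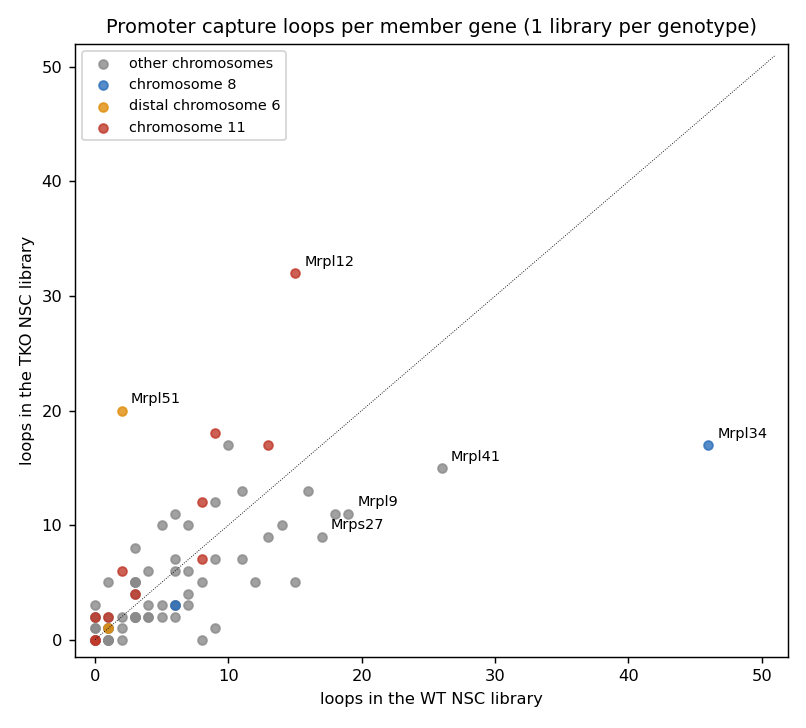
Number of loops per gene in the WT NSC library (horizontal) and the TKO NSC library (vertical), coloured by chromosome, with the dotted line at equal numbers (1 library per genotype, so no error is shown). Mrpl12 and Mrpl51 lie above the line at 32 and 20 loops in TKO, and Mrpl34 lies below it at 46 in WT and 17 in TKO.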

How the data were processed

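RNA-seq of 10 libraries and promoter capture Hi-C of 2 were used, while DNA methylation and histone mark data of the series were not used here. Tools named in the submitters' processing notes are featureCounts, Trim Galore 0.6.5, DESeq2 1.40.2 and STAR 2.7.3a, on mm10. The authors deposited a normalised signal, which the labels call DESeq2 normalised counts: reads per gene over a size factor, each cell type on its own. Divided by each library's step, 100% of the values were whole reads within 1e-06, and the totals were 41007791 to 49060991 reads. The strand setting and the loop caller are not stated. The deposited loop lists pair 2 anchors with the authors' score, which is at least 5.

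TKO was compared with WT by limma 3.58.1 (trend, two-sided) on log2(value + 1), keeping genes whose mean reached 10, with Benjamini-Hochberg adjustment over all genes and an adjusted p under 0.05. This scale understates changes of low genes. NSC against ESC used the recovered reads of all 10 libraries under common size factors. Replicate numbers do not pair TKO with WT (correlations of deviations -0.015 to 0.0075). Same-numbered ESC and NSC libraries share a line code and are paired by it (correlations -0.031 to 0.031). The main fits did not use this pairing, and the line entered as a block only in an alternative.

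Alternatives were edgeR 4.0.16 and DESeq2 1.42.0 on recovered reads, other scalings, pseudocounts and filters, chromosome centring, a block and leaving out libraries. Scripts were tested on simulated data. Members and lists were chosen with earlier results of these data known. Members named are the 12 largest changes per direction and comparison, those that passed in the TKO comparisons, those on chromosomes 8, 11 and distal 6, those with the lowest counts or nearest to 0, and those with most loops. From other lists the largest changes that passed are named, and further ones were chosen after their values were seen. Genes were placed by RefSeq on GRCm38.p6. Reads of overlapping genes (25 members overlap another) may not be told apart. Levels were not compared between genes, since no transcript lengths were used.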

Additional observations from a re-analysis of the deposited data

Results flagged for a closer look

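A total of 5 members had a TKO effect that differed between NSCs and ESCs in the test of the difference itself (limma interaction term, Benjamini-Hochberg adjusted over 15369 genes). The NSC effect minus the ESC effect was 0.66 for Mrpl34, 0.58 for Mrpl23 and 0.46 for Mrps27 on the log2 scale. It was -1.10 for Mrps6 and -0.62 for Mrpl58. Mrpl34 lies on chromosome 8, whose genes were lower as a whole in TKO ESCs, and its difference was 0.26 with chromosomes centred (adjusted p = 0.174). Mrpl23, Mrps27 and Mrps6 passed under all 22 alternatives, and Mrpl58, which lies on chromosome 11, under the 21 in which it was tested.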

How the results depend on the processing

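Counts of members higher and lower were within 1.5 times of those reported under edgeR, DESeq2, TMM scaling, both pseudocounts, both filters and robust variance estimates. With chromosomes centred, members higher in TKO ESCs numbered 3 and lower 0, and members lower in TKO NSCs 2. Without chromosomes 8, 11 and distal 6, which takes away 15 members, there were 2 higher and 0 lower in ESCs, 17 higher in NSCs, and 1 with a smaller effect in NSCs than in ESCs. With equal totals, members with a larger effect in NSCs numbered 7, and those higher in NSCs than ESCs 13 in WT and 16 in TKO. Leaving out each library gave 6 to 14 higher and 0 to 1 lower in TKO ESCs, 20 to 28 higher and 1 lower in TKO NSCs, 3 to 5 with a larger and 2 to 3 with a smaller effect in NSCs, 7 to 8 higher and 55 to 61 lower in WT NSCs than ESCs, and 3 to 6 higher and 51 to 55 lower in TKO NSCs than ESCs. Sign changes with centring include Mrpl10 (-0.011) and Mrpl45 (-0.037) in ESCs, and Mrpl22 (-0.013), Mrpl27 (-0.074), Mrpl51 (-0.17), Mrpl58 (-0.51), Mrps23 (-0.043) and Mrps35 (-0.0032) in NSCs. Equal totals changed the sign of NSC against ESC in 13 members in WT and 22 in TKO, of which 4 and 7 had passed as lower, and none of those passed as higher. They include Mrps23 in WT (0.25), and in TKO Mrpl10 (0.31), Mrpl34 (0.0091), Mrpl38 (0.15), Mrpl58 (0.35), Mrps23 (0.38) and Mrps7 (0.25). Beyond the construction of these alternatives the cause was not tested. A replicate block, whose numbers do not pair TKO with WT, gave 14 higher in ESCs and 24 in NSCs; with the line as block, NSC against ESC gave 57 lower in WT and 53 in TKO, and the difference between cell types kept 3 and 2. With 2 TKO lines, small changes of members may not pass. Loops with a score of at least 10 numbered 38 in WT and 37 in TKO, and those assigned by the start alone 364 and 326.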
